A study of Mus musculus with 45 samples.

Results

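The genes described here are the AP-2 transcription factors of the developing mouse face. They were chosen by name, as the rows for Tfap2a, Tfap2b, Tfap2c and Tfap2e in the authors' deposited table of variance-model results, and 3 of the 4 had a row, out of 8915 distinct gene symbols in that table. The 3 rows carry older symbols (Tcfap2a, Tcfap2b and Tcfap2c) and correspond to probe sets 10408798, 10345016 and 10478997; Tfap2e was not analysed here. Each gene is therefore represented by a single probe set, out of 28944 with a value on the array.

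The series profiled facial tissue of wild-type C57BL6/J mouse embryos on 45 microarrays, in 15 groups of 3 biological replicates. Tissue was taken at E10.5, E11.5 and E12.5 (days of embryonic development) from the frontonasal, maxillary and mandibular prominences, the swellings that grow out and fuse to form the midface and the upper and lower jaws. After Dispase II digestion the surface ectoderm was peeled from the underlying mesenchyme, and tissue from several embryos was pooled for each RNA sample. Both layers were profiled in 7 combinations of day and prominence: all 3 prominences at E11.5 and E12.5, and the mandibular prominence at E10.5. For the frontonasal prominence at E10.5 mesenchyme alone was analysed here, which gives 8 mesenchyme groups (24 arrays) and 7 ectoderm groups (21 arrays). All groups share strain and genotype, so every comparison below is between tissues or days of untreated embryos.

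AP-2 proteins bind DNA as dimers, at GC-rich sites of the palindromic form GCCNNNGGC, and act in the surface ectoderm, in the neural crest that gives rise to most facial mesenchyme, and in limb, kidney, eye and trophoblast. Tfap2a is required for closure of the neural tube and body wall and for formation of the face in the mouse, and mutations of the human gene cause branchio-oculo-facial syndrome. Mutations of human TFAP2B cause Char syndrome, with facial and ductus arteriosus defects. Tfap2c is known for its roles in trophoblast and in germ cell precursors, and all 3 genes overlap in ectoderm and neural crest. What the arrays measure is the amount of transcript, as a log2 signal after RMA normalization, so a difference of 1 is a 2-fold difference in signal.

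The 3 transcripts were detected on all 45 arrays by the authors' detection calls, and between 22008 and 26532 probe sets (76 to 91.7%) were detected per array. The layer labels were checked against 14 epithelial marker genes, whose mean log2 signal lay between 9.78 and 10.35 on the ectoderm arrays and between 5.59 and 8.50 on the mesenchyme arrays. The upper part of the mesenchyme range is the frontonasal prominence (7.71 to 8.50), while maxillary mesenchyme spanned 5.59 to 6.97 and mandibular mesenchyme 5.67 to 6.63. The mean of 13 olfactory placode markers was likewise 7.24 to 7.70 in frontonasal mesenchyme, against 5.69 to 6.11 in the other mesenchyme. The mean r of each array with its replicates was lowest in E12.5 frontonasal ectoderm, at 0.953 to 0.974, against 0.975 to 0.994 elsewhere. Replicate 3 was the lowest of that group (0.953), and it also enters the means of replicates 1 and 2. Those means (0.9738 and 0.9728) lay close to that of E11.5 frontonasal ectoderm replicate 2 (0.9748). The olfactory marker mean of the E12.5 frontonasal ectoderm arrays was 6.06 to 6.11, against 7.42 to 8.01 in E11.5 frontonasal ectoderm.

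All 3 AP-2 genes were higher in ectoderm than in mesenchyme in each of the 7 combinations of day and prominence. Averaged over these combinations, Tfap2a was 6.39-fold higher in ectoderm, Tfap2b 9.07-fold and Tfap2c 2.67-fold. The ectoderm and mesenchyme arrays did not overlap for Tfap2a, with 8.80 to 9.65 (median 9.21) in ectoderm and 5.49 to 8.05 (median 6.63) in mesenchyme. Nor did they overlap for Tfap2c, with 8.10 to 9.04 (median 8.78) in ectoderm and 6.69 to 7.90 (median 7.21) in mesenchyme. Tfap2b spanned 9.49 to 11.25 (median 10.65) in ectoderm and 5.33 to 9.83 (median 7.15) in mesenchyme, and its overlap came from frontonasal mesenchyme set against E10.5 mandibular ectoderm. The mean log2 differences were 2.67 ± 0.06 (SE) for Tfap2a, 3.18 ± 0.07 for Tfap2b and 1.41 ± 0.05 for Tfap2c, with limma adjusted p of 8.41e-31, 6.96e-31 and 1.01e-25. Layer separated most genes on these arrays: 69.6% of 14472 tested probe sets passed, 35.9% being higher and 33.7% lower in ectoderm, so that 3 calls of 3 stand against a high background. In the single combinations the share called was 39.8% for the E10.5 mandibular prominence, 36%, 40.2% and 36.9% for the frontonasal, maxillary and mandibular prominences at E11.5, and 48.1%, 42.2% and 46.5% for the same prominences at E12.5. In tissue of mixed cells, a smaller number of cells of one type and less transcript per cell cannot be told apart. Without the 3 arrays of E12.5 frontonasal ectoderm the mean differences were 2.83, 3.49 and 1.34.

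**Figure D1:**
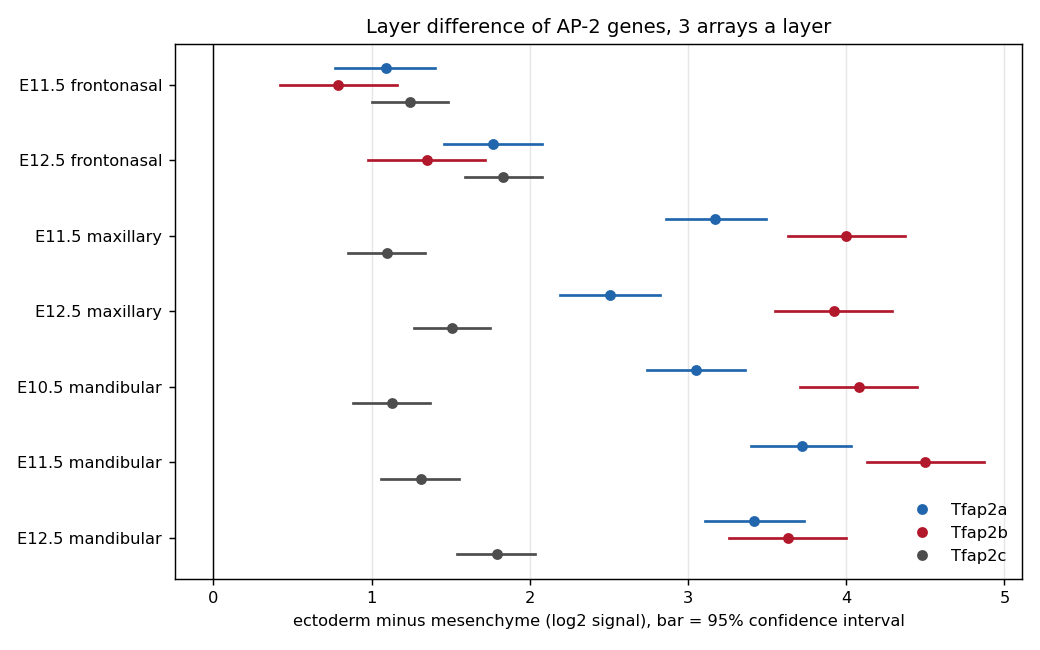
Ectoderm minus mesenchyme difference in log2 signal (horizontal axis) of Tfap2a, Tfap2b and Tfap2c in the 7 combinations of embryonic day and prominence that have both layers (vertical axis). Points are differences of means of 3 arrays and bars are 95% confidence intervals; the 2 frontonasal rows show Tfap2a and Tfap2b at 0.79 to 1.77, against 2.51 to 4.50 in the other rows, while Tfap2c stays between 1.10 and 1.83.

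For Tfap2a the layer difference was smallest in the frontonasal prominence and largest in the mandibular one. At E11.5 the 3 frontonasal ectoderm arrays read 9.09, 8.86 and 9.26 and the frontonasal mesenchyme arrays 7.94, 8.05 and 7.96. In the mandibular prominence at the same age ectoderm read 9.65, 9.15 and 9.14 and mesenchyme 5.49, 5.65 and 5.65. Ectoderm was thus alike in both places and the mesenchyme was not: every frontonasal array was more than 2 log2 units above every mandibular one. The maxillary prominence lay between, with 9.61, 9.51 and 9.46 in E11.5 ectoderm and 6.27, 6.78 and 6.01 in E11.5 mesenchyme. At E12.5 frontonasal mesenchyme read 7.70, 7.59 and 7.53, maxillary mesenchyme 6.57, 6.97 and 6.69, and mandibular mesenchyme 5.82, 5.74 and 5.68. These 3 groups kept the order frontonasal, maxillary, mandibular without overlap. At E10.5 frontonasal mesenchyme read 7.72, 7.77 and 7.85 against 6.23, 5.52 and 5.58 in mandibular mesenchyme, again without overlap. Across all 15 groups, ordered by mean, the ranges of 8 of the 14 neighbouring pairs overlapped, 5 of them among the 6 highest ectoderm groups, so that order has little meaning within ectoderm.

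Tfap2b showed the same arrangement with a wider span. E11.5 frontonasal mesenchyme read 9.69, 9.70 and 9.55, which is within the range of E10.5 mandibular ectoderm (9.68, 9.49 and 9.75). E11.5 frontonasal ectoderm was higher, at 10.41, 10.29 and 10.61. Mandibular mesenchyme at E11.5 was near the bottom of the gene's range, at 5.92, 5.60 and 5.33, while its ectoderm read 10.32, 10.04 and 9.99. Maxillary mesenchyme read 6.52, 7.33 and 6.24 at E11.5 and 6.79, 7.50 and 6.67 at E12.5, with 1 high array at each age. The replicate 2 arrays, which were the high ones, also had the highest epithelial marker means of their groups, 6.97 and 6.88 against 5.59 to 6.03 on the other 4 maxillary mesenchyme arrays. At E12.5 mandibular mesenchyme reached 6.84, 7.25 and 7.05, above all mandibular mesenchyme arrays of the earlier ages and overlapping the maxillary ones. Frontonasal mesenchyme read 9.75, 9.83 and 9.75 at E12.5 and 9.41, 9.34 and 9.29 at E10.5. Of the 14 neighbouring pairs of groups 7 overlapped in range.

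Tfap2c was the least variable of the 3 across groups. Its mesenchyme values had no frontonasal peak: at E11.5 they were 7.31, 7.14 and 7.47 in frontonasal, 7.90, 7.79 and 7.86 in maxillary, and 7.54, 7.48 and 7.41 in mandibular tissue. Maxillary mesenchyme was the highest of these groups and did not overlap the others. At E12.5 the corresponding means were 7.09 ± 0.09 (SD, n = 3), 7.33 ± 0.15 and 6.98 ± 0.25, and the ranges of frontonasal and mandibular tissue overlapped, while maxillary tissue (7.17 to 7.46) touched the top of the frontonasal range. Ectoderm of the 3 prominences at E12.5 spanned 8.67 to 9.04. The ranges of 12 of 14 neighbouring pairs of groups overlapped, one exception being the step from the lowest ectoderm group (E10.5 mandibular, 8.33, 8.10 and 8.37) to the highest mesenchyme group (E11.5 maxillary).

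**Figure D2:**
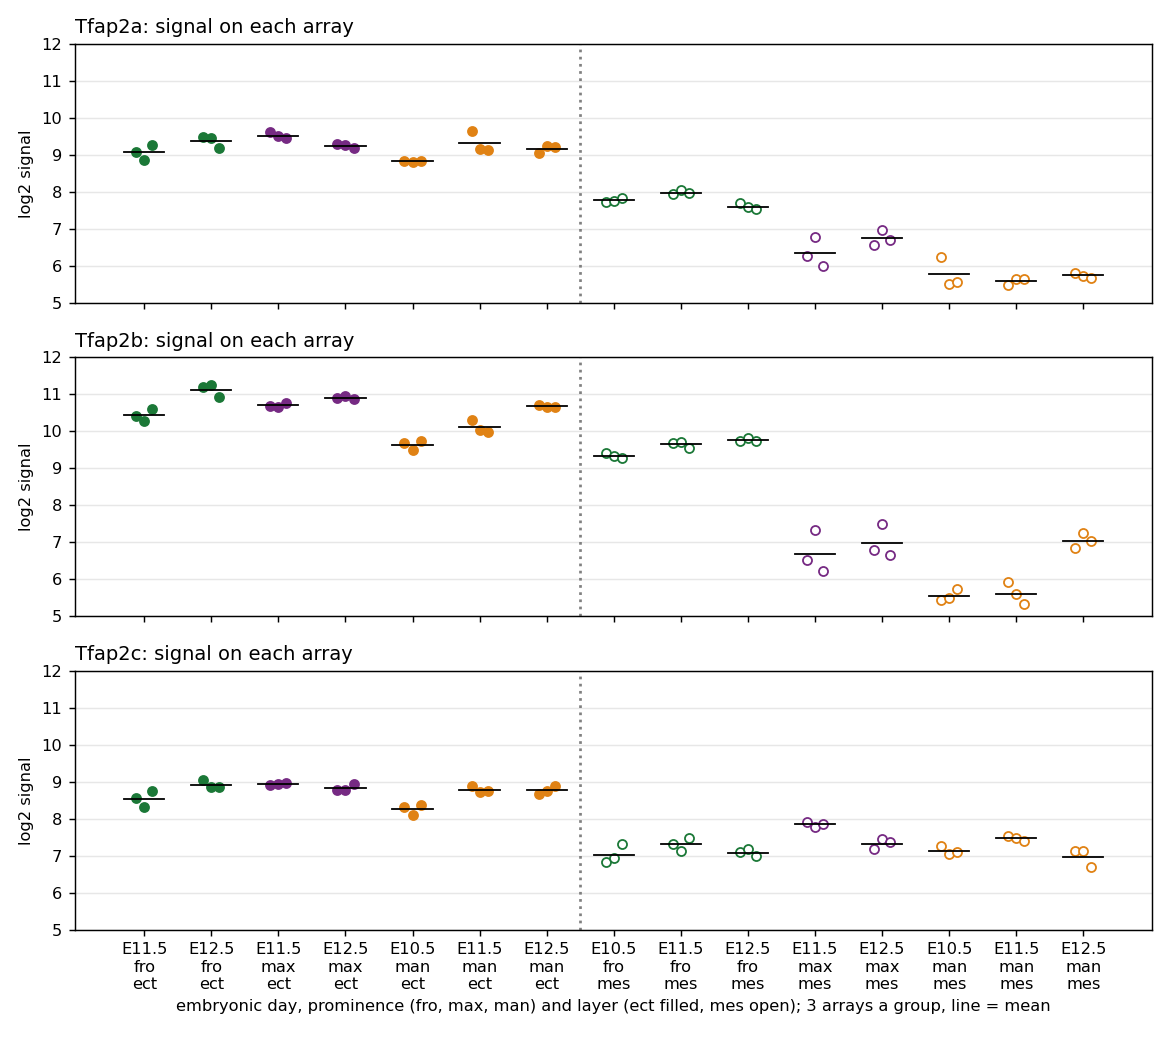
Log2 signal (vertical axis) of Tfap2a, Tfap2b and Tfap2c on each of the 45 arrays, by group (horizontal axis: embryonic day, prominence and layer); each point is an array, filled for ectoderm and open for mesenchyme, and lines are means of 3 arrays. Frontonasal mesenchyme stands above the other mesenchyme for Tfap2a (7.53 to 8.05) and Tfap2b (9.29 to 9.83) and not for Tfap2c (6.83 to 7.47); levels of different genes come from different probes and are not comparable.

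Because Tfap2a and Tfap2b shared this mesenchyme pattern, their start regions are shown, from RefSeq on the GRCm38.p6 build (the array files name mm9, so these positions are not those of the files). RefSeq windows of 250 bases before to 50 bases after a transcript start were matched for Tfap2a (2 windows) and Tfap2b (1 window). Capitals mark matches, on either strand, to the AP-2 palindrome GCCNNNGGC, to its longer-spaced form GCCNNNNGGC, to the E-box CAGGTG, which is read by repressors of epithelial genes such as Snai2 and Zeb1, and to the homeodomain core TAATTA. In Tfap2a the more upstream window is chr13:40734871-40735170 and the downstream one chr13:40733746-40734045, both on the minus strand, and the Tfap2b window is chr1:19211804-19212103 on the plus strand.
Tfap2a, upstream window: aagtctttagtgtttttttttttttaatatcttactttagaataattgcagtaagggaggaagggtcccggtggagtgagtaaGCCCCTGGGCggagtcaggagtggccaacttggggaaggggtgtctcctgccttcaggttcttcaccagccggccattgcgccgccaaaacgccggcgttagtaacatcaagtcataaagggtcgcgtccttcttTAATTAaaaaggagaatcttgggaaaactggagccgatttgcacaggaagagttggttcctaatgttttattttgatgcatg
Tfap2a, downstream window: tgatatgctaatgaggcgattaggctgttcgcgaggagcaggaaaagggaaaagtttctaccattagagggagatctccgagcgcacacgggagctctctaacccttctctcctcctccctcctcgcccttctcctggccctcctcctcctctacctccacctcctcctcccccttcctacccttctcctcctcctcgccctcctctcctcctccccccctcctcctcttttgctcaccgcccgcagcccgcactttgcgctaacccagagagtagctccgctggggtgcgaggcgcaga
Tfap2b: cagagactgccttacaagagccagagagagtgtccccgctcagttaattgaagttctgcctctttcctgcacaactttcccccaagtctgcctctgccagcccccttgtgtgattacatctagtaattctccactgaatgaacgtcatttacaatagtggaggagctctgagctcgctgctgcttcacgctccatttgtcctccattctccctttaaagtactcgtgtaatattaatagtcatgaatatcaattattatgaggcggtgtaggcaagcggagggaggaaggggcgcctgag

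The upstream Tfap2a window held 1 match to the longer-spaced AP-2 form (GCCCCTGGGC, beginning 167 bases before the start) and 1 to TAATTA, which begins 32 bases before the start. The downstream Tfap2a window and the Tfap2b window held none of the 4 motifs, which says only that these letters are not in these windows. Over all 32851 RefSeq windows, GCCNNNGGC was found in 16.6%, GCCNNNNGGC in 14.8%, CAGGTG in 20.2% and TAATTA in 5.29%. The windows also differed in base composition, with a GC content of 61% in the downstream Tfap2a window, 46.3% in the upstream one and 48.3% in that of Tfap2b.

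Between prominences, Tfap2a and Tfap2b differed widely in mesenchyme, and Tfap2c by little. Over E11.5 and E12.5, frontonasal exceeded mandibular mesenchyme 4.36-fold for Tfap2a (log2 difference 2.12 ± 0.11 SE, limma adjusted p = 6.1e-18) and 10.4-fold for Tfap2b (3.38 ± 0.13, adjusted p = 1.2e-21). For Tfap2c the difference was -0.03 ± 0.08 (95% confidence interval -0.20 to 0.14, adjusted p = 0.904). Thus 2 of the 3 genes passed, where 20.3% of tested probe sets did (11.8% higher and 8.48% lower in frontonasal tissue). Frontonasal exceeded maxillary mesenchyme by 1.25 ± 0.11 for Tfap2a (adjusted p = 1.41e-11) and by 2.87 ± 0.13 for Tfap2b (adjusted p = 2.56e-19). Tfap2c went the other way, 1.31-fold lower in frontonasal than in maxillary mesenchyme (-0.39 ± 0.08, adjusted p = 0.000513), and 18.8% of probe sets passed in this comparison. By day this Tfap2c difference was -0.54 at E11.5 (limma adjusted p = 0.00135) and -0.24 at E12.5, where it did not pass (adjusted p = 0.203). On the average of the 2 days, maxillary exceeded mandibular mesenchyme for all 3 genes, by 0.88 ± 0.11 for Tfap2a (adjusted p = 1.04e-07), 0.51 ± 0.13 for Tfap2b (adjusted p = 0.00525) and 0.36 ± 0.08 for Tfap2c (adjusted p = 0.00255), against 9.98% of probe sets called. At the separate days the Tfap2b difference was 1.08 at E11.5 (adjusted p = 5.41e-05, 5.76% called) and -0.06 at E12.5 (adjusted p = 0.915, 7.1% called), and that of Tfap2c was 0.37 and 0.35, passing at neither day (adjusted p of 0.0594 and 0.0748). With array weights both Tfap2c values passed (0.38 and 0.39, limma adjusted p of 0.00356 and 0.00477). Each also passed under some other settings. Without the 2 replicate 2 arrays of maxillary mesenchyme, whose epithelial markers were high, the Tfap2b difference fell to 0.22 and no longer passed (adjusted p = 0.207), while those of Tfap2a (0.71) and Tfap2c (0.34) did. At E10.5, where only frontonasal and mandibular mesenchyme can be compared, the differences were 2.00 ± 0.15 for Tfap2a, 3.79 ± 0.18 for Tfap2b and -0.12 ± 0.12 for Tfap2c, with limma adjusted p of 1.18e-12, 2.77e-18 and 0.535 (24.2% called).

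**Figure D3:**
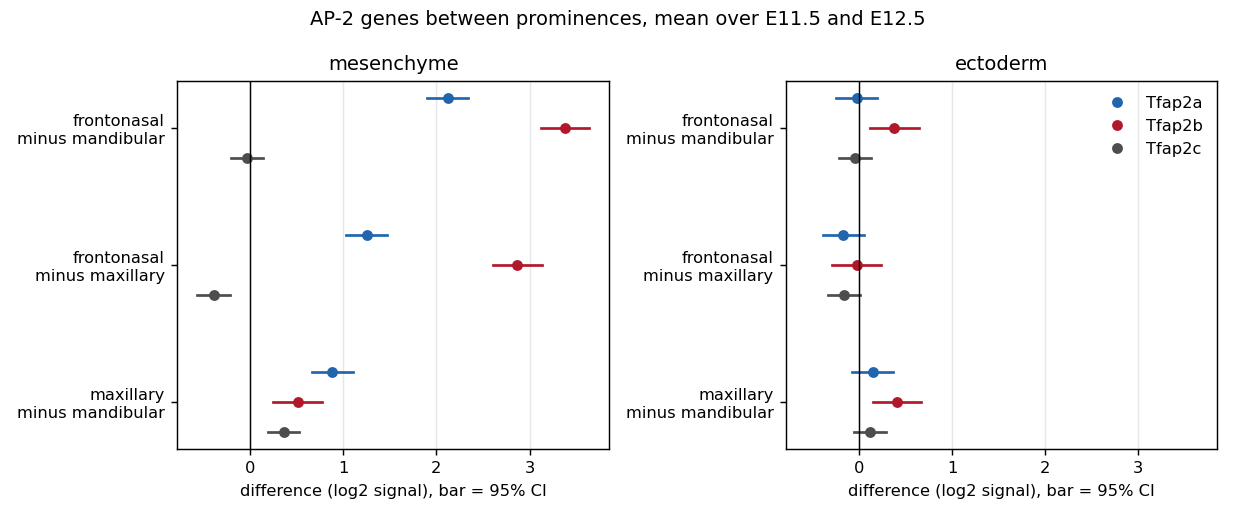
Differences between prominences in log2 signal (horizontal axes), averaged over E11.5 and E12.5, in mesenchyme (left) and ectoderm (right), for Tfap2a, Tfap2b and Tfap2c. Points are differences and bars 95% confidence intervals; in mesenchyme the frontonasal minus mandibular difference is 2.12 for Tfap2a, 3.38 for Tfap2b and -0.03 for Tfap2c, while in ectoderm every difference lies between -0.17 and 0.41.

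Markers of epithelium and of the olfactory placode moved with the frontonasal mesenchyme values. All 14 epithelial markers and all 13 olfactory markers were higher in frontonasal than in mandibular mesenchyme, with median log2 differences of 1.76 and 1.31, beside -0.02 over all tested probe sets. Between 13 and 14 of the 14 epithelial markers were detected on the mesenchyme arrays of the other 2 prominences, and all 14 on the frontonasal ones. For each gene the mesenchyme signal can be given as a percent of the ectoderm signal of the same day and prominence. At E11.5 in the frontonasal prominence this was 47.1% for Tfap2a and 57.8% for Tfap2b, above all 14 epithelial markers (6.87 to 45.2%, median 23.7%, the highest being Epcam). Tfap2c, at 42.3%, was above 13 of them. At E12.5 the frontonasal percentages were 29.3% for Tfap2a, 39.3% for Tfap2b and 28.1% for Tfap2c, within a marker range of 9.9 to 206% (median 29%). The highest marker there was Krt8, a keratin of simple epithelia.

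In the maxillary and mandibular prominences Tfap2a and Tfap2b mesenchyme signals were small against ectoderm, 7.61 to 17.6% for Tfap2a and 4.42 to 8.1% for Tfap2b, with marker medians of 4.73 to 6.51%. Some of these signals were below the array medians of 5.97 to 6.22. They were Tfap2a in mandibular mesenchyme (means 5.60 to 5.78) and Tfap2b there at E10.5 and E11.5 (5.56 and 5.62). The part of background in these percentages, and in folds against such groups, was not tested. There Tfap2c stood at 29 to 46.8%, above all 14 epithelial markers in each of the 5 combinations. Within frontonasal mesenchyme the epithelial marker mean was 7.71 to 7.74 at E11.5 and 8.37 to 8.50 at E12.5, while the mean of Tfap2a was 7.98 and 7.61 (-0.38, limma adjusted p = 0.0971) and that of Tfap2b 9.65 and 9.78 (0.13, adjusted p = 0.751). The Tfap2a difference passed with only the groups compared and with array weights (limma adjusted p = 0.0229 in each). As a description over the 8 mesenchyme group means, which share the prominence difference, Pearson's r with the epithelial marker mean was 0.89 for Tfap2a, 0.97 for Tfap2b and -0.46 for Tfap2c. Over the same means r was 0.94 between Tfap2a and Tfap2b, -0.21 between Tfap2a and Tfap2c, and -0.37 between Tfap2b and Tfap2c. The part of epithelial or placodal cells in the frontonasal mesenchyme values was not tested.

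**Figure D4:**
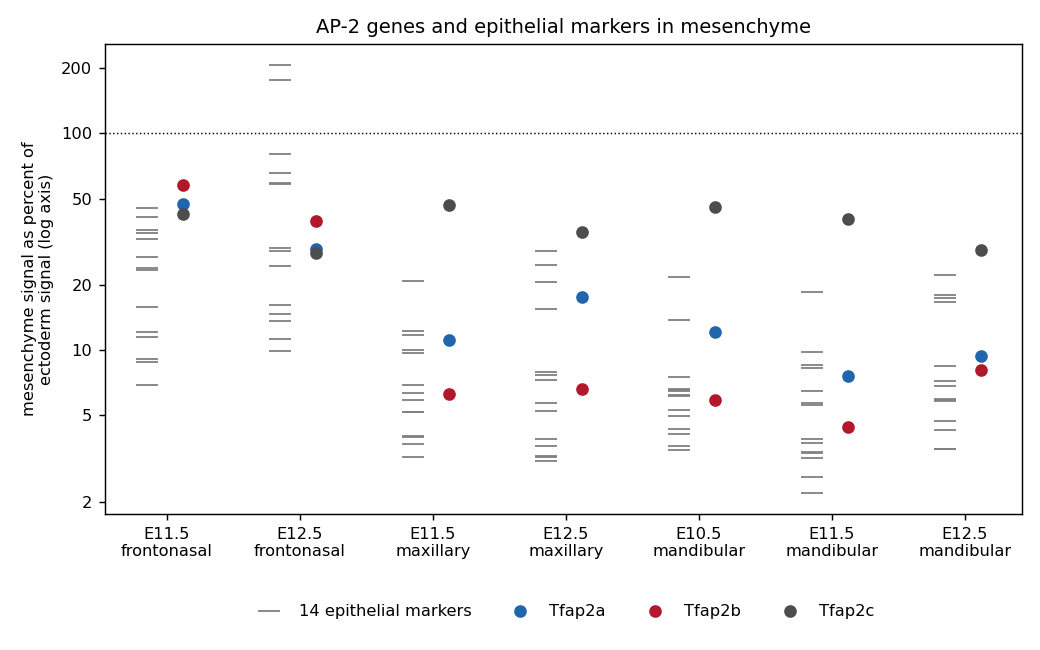
Mesenchyme signal as a percent of ectoderm signal (vertical axis, log scale) in 7 combinations of embryonic day and prominence (horizontal axis), for Tfap2a, Tfap2b and Tfap2c (points) and 14 epithelial markers (grey dashes), from means of 3 arrays. Tfap2a and Tfap2b lie above all markers in the E11.5 frontonasal prominence (47.1 and 57.8% against at most 45.2%), and Tfap2c lies above all markers in the maxillary and mandibular combinations (29 to 46.8%).

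**Figure D5:**
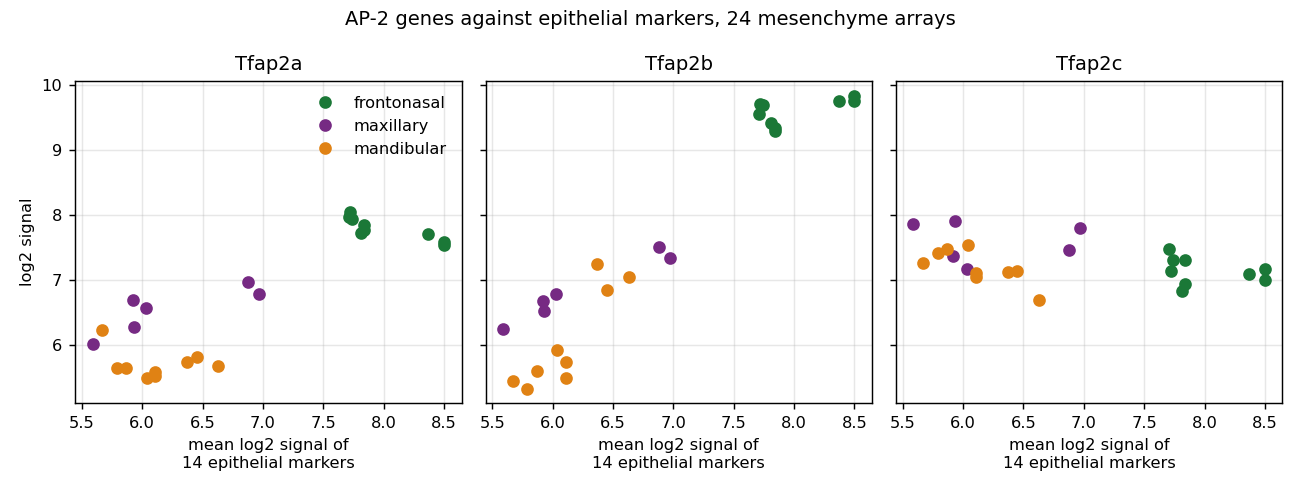
Log2 signal of Tfap2a, Tfap2b and Tfap2c (vertical axes) against the mean log2 signal of 14 epithelial markers (horizontal axes) on the 24 mesenchyme arrays, coloured by prominence. The 9 frontonasal arrays lie at 7.71 to 8.50 on the marker axis and the other 15 between 5.59 and 6.97; Tfap2c does not rise with the markers, and the 2 maxillary arrays at 6.88 and 6.97 are those with the highest Tfap2b of their prominence (7.50 and 7.33).

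The dependence of the layer difference on prominence was tested directly. For Tfap2a the mean layer difference over E11.5 and E12.5 was 1.43 ± 0.11 in the frontonasal, 2.84 ± 0.11 in the maxillary and 3.57 ± 0.11 in the mandibular prominence. For Tfap2b it was 1.07 ± 0.13, 3.96 ± 0.13 and 4.06 ± 0.13, and for Tfap2c 1.54 ± 0.08, 1.30 ± 0.08 and 1.55 ± 0.08. The frontonasal difference was smaller than the mandibular one by 2.14 for Tfap2a (-2.14 ± 0.15, limma adjusted p = 3.7e-13) and by 3.00 for Tfap2b (-3.00 ± 0.18, adjusted p = 4.68e-15), among 18.5% of probe sets called. Against the maxillary prominence the interactions were -1.41 ± 0.15 for Tfap2a and -2.89 ± 0.18 for Tfap2b, with adjusted p of 1.27e-08 and 2.98e-14 and 11.6% of probe sets called. The maxillary and mandibular layer differences of Tfap2a also differed (-0.73 ± 0.15, adjusted p = 0.00121, 6.68% called), and those of Tfap2b did not pass (-0.10 ± 0.18, interval -0.47 to 0.27). None of the 3 interactions passed for Tfap2c, for which the values were -0.01, 0.23 and -0.24 with adjusted p of 0.957, 0.226 and 0.332. With array weights the frontonasal minus maxillary value was 0.39 and passed (adjusted p = 0.00578). All 14 epithelial markers had a smaller layer difference in the frontonasal than in the mandibular prominence too, with a median interaction of -1.85.

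Whether 2 members shifted by unequal amounts was tested within arrays, by exact two-sided permutation of the difference between the genes, with 27 tests of which 20 passed after adjustment (the smallest that 400 permutations allow is 0.005). How often other pairs of genes would pass was not tested. The genes are read by different probes, and some mandibular mesenchyme signals of Tfap2a and Tfap2b were below the array medians. The part of probe response and background in the unequal shifts of log2 signal was not tested. Tfap2b shifted further than Tfap2a from mandibular to frontonasal mesenchyme, by 1.26 log2 units on average (0.87 and 1.64 at the 2 ages, exact permutation p = 0.005, adjusted p = 0.00844). Tfap2a shifted by 2.16 more than Tfap2c, and Tfap2b by 3.41 more than Tfap2c, with the same p. From mandibular to maxillary mesenchyme the shift of Tfap2a exceeded that of Tfap2c by 0.51 (exact p = 0.015, adjusted p = 0.0213), while those of Tfap2a and Tfap2b were not distinguishable on average (0.37, exact p = 0.22), being -0.32 and 1.06 at the separate ages. In ectoderm the difference between Tfap2a and Tfap2c did not shift detectably in any of 3 prominence comparisons (-0.01 to 0.03, exact p of 0.73 to 0.95). Tfap2a minus Tfap2b shifted by -0.40 (frontonasal minus mandibular), -0.14 (frontonasal minus maxillary) and -0.26 (maxillary minus mandibular), and all passed (exact permutation, adjusted p of 0.00844, 0.00844 and 0.015). For Tfap2b minus Tfap2c the shifts were 0.43, 0.13 and 0.29, of which the second did not pass (adjusted p = 0.0836). The ectoderm means of Tfap2a and Tfap2c correlated at r = 0.95 over 7 groups, as a description, against 0.69 for Tfap2a with Tfap2b and 0.83 for Tfap2b with Tfap2c.

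Between prominences of the ectoderm the differences were small. Tfap2b, at 10.29 to 11.25 (median 10.77) in frontonasal ectoderm and 9.99 to 10.70 in E11.5 and E12.5 mandibular ectoderm, was 1.31-fold higher in the frontonasal prominence (0.38 ± 0.13, limma adjusted p = 0.0283), and 23.1% of probe sets passed. At the separate days the difference was 0.32 (adjusted p = 0.328, 8.71% called) and 0.45 (adjusted p = 0.0886, 14.6% called). In the same comparison 12 of 13 olfactory placode markers (median 0.93), 5 of 9 neuronal markers (median 1.21) and 4 of 6 leukocyte markers (median 0.30) were higher in frontonasal ectoderm, and their part in the Tfap2b value was not tested. The Tfap2b call was lost without E11.5 frontonasal replicate 3, E11.5 mandibular replicates 2 or 3 or E12.5 mandibular replicate 2 (0.34 to 0.38, adjusted p of 0.0541 to 0.0608), and with array medians centred (0.29, adjusted p = 0.107). Maxillary minus mandibular Tfap2b was 0.41 ± 0.13 and just missed the threshold (adjusted p = 0.0546, 5.04% called). It passed when only the groups compared were fitted (adjusted p = 0.00362) and under several other settings. Averaged over E11.5 and E12.5, the intervals of the ectodermal differences of Tfap2a and Tfap2c lay within -0.39 to 0.37, and none passed. In the same averages for frontonasal minus maxillary ectoderm the 95% intervals of all 3 genes included 0, that of Tfap2b being -0.29 to 0.24, and limma called none of them (9.24% called). At E11.5 alone, Tfap2c was lower in frontonasal than in maxillary ectoderm (-0.40, interval -0.64 to -0.16, adjusted p = 0.0354, 6.52% called), a call lost in 5 of the 6 fits that left out an array. Tfap2a gave -0.46 there (interval -0.77 to -0.14, adjusted p = 0.0715).

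With embryonic day, Tfap2b rose in mandibular mesenchyme, from 5.62 ± 0.30 (SD, n = 3) at E11.5 to 7.05 ± 0.21 at E12.5, a 2.69-fold change (1.43 ± 0.18 SE, limma adjusted p = 1.61e-07, 19.4% of probe sets called). In frontonasal and maxillary mesenchyme the change over the same interval was 0.13 ± 0.18 and 0.29 ± 0.18 and did not pass (15.6% and 24.3% called). The maxillary value depended on E11.5 replicate 2, without which it was 0.61 and passed (adjusted p = 0.00847), as it did with array weights (0.56, adjusted p = 0.0105). The mandibular rise exceeded the frontonasal one by 1.30 ± 0.26 (adjusted p = 0.00149, 2.89% called) and the maxillary one by 1.14 ± 0.26 (adjusted p = 0.00674, 2.54% called), in tests added after the values had been seen. Fitted on the groups compared alone, the second of these was not called (adjusted p = 0.158). In mandibular mesenchyme the mean of 6 skeletal muscle markers was 7.24 to 7.40 at E11.5 and 8.11 to 8.25 at E12.5. That of the epithelial markers was 5.79 to 6.04 and 6.37 to 6.63, and the part of either tissue in the Tfap2b rise was not tested. Averaged over the 3 prominences, Tfap2b in mesenchyme was 0.62 ± 0.10 higher at E12.5 than at E11.5 (adjusted p = 9.67e-06) and Tfap2c 0.41 lower (-0.41 ± 0.07, adjusted p = 7.9e-06), among 36.7% of probe sets called. Tfap2a gave 0.05 ± 0.09 (interval -0.13 to 0.23). By prominence the Tfap2a change was -0.38 in frontonasal, 0.39 in maxillary and 0.15 in mandibular mesenchyme, and none passed (limma adjusted p of 0.0971, 0.061 and 0.599). The maxillary value passed with array weights (0.52, adjusted p = 0.00152) and without E11.5 replicate 2 (0.60, adjusted p = 0.00466). It also passed without the 2 replicate 2 arrays (0.49, adjusted p = 0.0358).

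From E10.5 to E11.5 in mesenchyme, Tfap2c rose by 0.31 ± 0.08 (limma adjusted p = 0.00507, 26.1% called), while Tfap2a (0.01 ± 0.11) and Tfap2b (0.18 ± 0.13) did not pass. In frontonasal mesenchyme neither Tfap2c step passed alone (0.28 ± 0.12 from E10.5 to E11.5 with 19.3% called, then -0.22 ± 0.12). In mandibular mesenchyme the step from E10.5 to E11.5 was 0.34 ± 0.12 (adjusted p = 0.0465, 17.6% called), and the call was lost in 5 of the 6 fits that left out an array (adjusted p of 0.062 to 0.175), without the variance filter (adjusted p = 0.0557) and with array medians centred (0.28, adjusted p = 0.175). In the mandibular step from E11.5 to E12.5 (-0.50 ± 0.12), 1 array decided the call: without E12.5 replicate 3 the difference was -0.35 with adjusted p = 0.0534. In maxillary mesenchyme the same step was -0.52 ± 0.12 (limma adjusted p = 0.00125, 24.3% called). Without the 2 replicate 2 arrays it was -0.61 (adjusted p = 0.00331). The neuronal marker mean of maxillary mesenchyme was 7.09 at E11.5 and 5.95 at E12.5, and the part of such cells in this Tfap2c step was not tested. In ectoderm, E10.5 was profiled for the mandibular prominence only, and from E10.5 to E11.5 Tfap2a rose there from 8.83 ± 0.03 to 9.31 ± 0.29 (0.49 ± 0.15 SE, adjusted p = 0.0222) and Tfap2c from 8.27 ± 0.15 to 8.78 ± 0.09 (0.52 ± 0.12, adjusted p = 0.00166), with 18.4% of probe sets called. The Tfap2a call was lost without E11.5 replicate 1, the high array of its group (0.32, adjusted p = 0.216), or without E10.5 replicate 1 or 2. Tfap2b changed by a similar amount that did not pass (0.48 ± 0.18, adjusted p = 0.063), and it passed when only the groups compared were fitted (adjusted p = 0.0302). Between the same ectoderm groups 11 of 12 mesenchyme markers (median 1.56), 6 of 6 erythroid markers (median 1.75) and 7 of 8 endothelial markers (median 1.02) were higher at E11.5, and their part in these changes was not tested. From E11.5 to E12.5 ectodermal Tfap2b rose by 0.48 ± 0.10 on average over the 3 prominences (adjusted p = 0.000395, 28.7% called), and Tfap2a (-0.04 ± 0.09) and Tfap2c (0.08 ± 0.07) did not pass. By prominence Tfap2b changed by 0.69 in frontonasal, 0.21 in maxillary and 0.56 in mandibular ectoderm (limma adjusted p of 0.00498, 0.627 and 0.036). The mandibular call was lost in 5 of the 6 fits that left out an array. Tfap2c passed in frontonasal ectoderm alone (0.37, adjusted p = 0.0226), against -0.11 in maxillary and -0.02 in mandibular ectoderm. That call was lost in 3 of 6 such fits. Over the same days in ectoderm 10 of 13 olfactory (median -0.52), 8 of 9 neuronal (median -0.76) and 6 of 6 erythroid markers (median -0.85) were lower at E12.5. Their part in the Tfap2b change was not tested. The frontonasal group of E12.5 held the array with the lowest mean r with its replicates. For Tfap2c the layer difference was larger at E12.5 (1.71 ± 0.07) than at E11.5 (1.21 ± 0.07), an interaction of 0.50 ± 0.10 (adjusted p = 0.000172, 23.9% called). The corresponding interactions of Tfap2a (-0.09 ± 0.13) and Tfap2b (-0.13 ± 0.15) did not pass. For the same interaction 6 of 12 mesenchyme markers (median -0.66) and 4 of 14 epithelial markers (median -0.33) had a lower value, beside a median of 0.01 over all tested probe sets. The other markers of both lists gave no call, and the part of these changes in the Tfap2c value was not tested.

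The authors' deposited table gives q-values of a 3-way variance model for the same probe sets. Its layer term had the smallest q for each gene, 7.62e-28 for Tfap2a, 1.94e-26 for Tfap2b and 1.36e-21 for Tfap2c in the authors' deposited table. The prominence-by-layer term there had q = 3.5e-11 for Tfap2a and q = 2.17e-13 for Tfap2b, and q = 0.288 for Tfap2c. The age-by-prominence term in the authors' deposited table was 0.000152 for Tfap2b, the smallest of the 3 genes, and the age-by-layer term was 0.00252 for Tfap2c, again the smallest of the 3. Age by prominence had q = 0.0217 for Tfap2a and q = 0.0368 for Tfap2c. Age by layer had q = 0.226 for Tfap2a and q = 0.0444 for Tfap2b. The limma layer-by-day interaction of Tfap2b, which compared E12.5 with E11.5 only and so is not the same test, did not pass. The 3-way term had q = 0.0342 for Tfap2a, 0.217 for Tfap2b and 0.967 for Tfap2c.

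The probe sets whose 15 group means most resembled each gene were named by Pearson's r over 9392 candidates, as a description. For Tfap2a they were Esrp1 (r = 0.979), which directs epithelial splicing, Grhl2 (0.977), an epithelial transcription factor, Cdcp1 (0.977), Ptpn3 (0.976) and Ap1m2 (0.976), an adaptor subunit of epithelial membrane traffic. For Tfap2b they were Epcam (0.967), an epithelial adhesion protein, Rnf128 (0.965), Esrp1 (0.959), Rbm47 (0.955) and Spint2 (0.954), an inhibitor of membrane proteases. For Tfap2c the set had no gene in common with these: Rnf149 (0.974), C130021I20Rik (0.968), Znrf3 (0.966), a ubiquitin ligase that removes Wnt receptors, Lrrc4 (0.960) and Pard6g (0.959), a cell polarity protein. These values are over groups that share the layer difference, which 69.6% of probe sets show.

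Among 13 genes for AP-2 cofactors and inhibitors, 6 passed the filter on variance and were tested. Of these, Kctd1, an inhibitor of AP-2 transactivation, was higher in ectoderm (0.55 ± 0.04, limma adjusted p = 3.14e-16), as were Cited2 (0.31 ± 0.03, adjusted p = 1.52e-10) and Cited4 (0.16 ± 0.06, adjusted p = 0.0223), coactivators that join AP-2 to p300 and CBP. Cited1, of the same family, was lower in ectoderm (-1.07 ± 0.06, adjusted p = 2.12e-18), and 2 of the 6 gave no call, so that 4 of 6 passed where 69.6% of all probe sets did. The median difference of the 6 was 0.04, beside 0.03 over all tested probe sets. In mesenchyme, Cited1 was lower in frontonasal than in mandibular tissue (-1.48 ± 0.11, adjusted p = 1.94e-13), and also lower in maxillary than in mandibular tissue (-1.75 ± 0.11, adjusted p = 6.64e-15, where 5.84% of probe sets were lower). From E11.5 to E12.5 in mesenchyme, where 17.3% of all probe sets fell, Cited1 fell (-0.81 ± 0.09, limma adjusted p = 3.41e-09), and so did Yeats4, which encodes a protein that binds AP-2β (-0.48 ± 0.07, adjusted p = 2.13e-07).

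A list of 23 epidermal genes linked to AP-2 factors followed the layers closely: 22 were higher in ectoderm, where 35.9% of all probe sets were, and 1 gave no call, with a median difference of 2.91 beside 0.03 over all tested probe sets. The list shares Krt14, Krt5, Perp, Cdh1, Krt8 and Krt18 with the epithelial markers used to check the layers, so its counts are not independent of them. It was also chosen with earlier results of these data known. Krt14 (4.34 ± 0.12, adjusted p = 1.08e-27) and Krt5 (3.97 ± 0.12, adjusted p = 1.01e-26), keratins of basal epidermis, Perp (4.25 ± 0.10, adjusted p = 5.19e-30), a desmosome protein, and Cdh1 (3.79 ± 0.09, adjusted p = 6.04e-30), the epithelial cadherin, had the largest differences by limma. In frontonasal against mandibular mesenchyme 15 of the 23 were higher, where 11.8% of all probe sets were, and 8 gave no call (median 0.54, beside -0.02), led by Krt8 (2.37 ± 0.08) and Krt18 (2.32 ± 0.13), the paired keratins of simple epithelia. In ectoderm the same comparison gave 4 lower and 19 with no call (median -0.18, beside 0.03, and 11.8% of all probe sets lower), with Krt15, another basal keratin, at -1.55 ± 0.14. A list of 20 neural crest and jaw genes linked to AP-2 factors split: 15 were lower and 4 higher in ectoderm (median -0.69, beside 33.7% of all probe sets lower and 35.9% higher). In frontonasal against mandibular mesenchyme 8 were higher and 7 lower (median 0.16, beside 11.8% higher and 8.48% lower). Alx1 (2.11 ± 0.21), needed for the midface, and Pax7 (1.75 ± 0.10), a crest factor, were higher in frontonasal mesenchyme, and Hand2 (-2.99 ± 0.17) and Barx1 (-2.10 ± 0.14), factors of the lower jaw and of tooth-bearing mesenchyme, were lower.

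Start windows were in RefSeq for 14 of the 23 epidermal and 12 of the 20 crest genes, and 6 of each held GCCNNNGGC or GCCNNNNGGC, while 29.6% of all genes with a window do. They included Krt18 and Barx1, of which the matching stretches (GRCm38.p6, capitals marking the motif) are shown because these genes were higher and lower, respectively, in frontonasal mesenchyme.
Krt18, chr15:102028125-102028149, plus strand: atcctggcGCCCCCGGCtccggtgg
Barx1, chr13:48662968-48662993, plus strand: tccgcccgGCCAGCCGGCgggggagg
These matches describe the letters only, since binding was not measured.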

How the data were processed

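Tissue of 15 groups of 3 samples was hybridised to Affymetrix Mouse Gene 1.0 ST arrays. Per the submitters' processing notes, the authors used Affymetrix Power Tools and RMA with build mm9, and the deposited values are log2 signals. The authors also deposited detection p-values per array and, per the file headers, q-values of a 3-way variance model for 9626 probe sets, whose symbols were updated through RefSeq synonyms.

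From these, group means were fitted to all 45 arrays with limma 3.58.1 (R 4.3.3) on 14472 probe sets of variance above the median (0.0414), following the series' own filter. Contrasts were tested with eBayes, and p-values adjusted by Benjamini-Hochberg over all of these at 0.05. A single fit pooled the spread of all groups. The fit was tested on simulated data. Precision is limited by 3 arrays a group. No pair of arrays was identical. Unequal shifts of 2 members were tested by exact permutation of arrays within each day. From each list at most 4 called genes with the largest differences were named, and for each member the 5 probe sets with the highest Pearson r. Members and lists were chosen with earlier results of these data known. Alternatives covered filters, normalization, moderation, weights, a replicate block, the groups fitted and each array left out. Leaving out the 2 maxillary mesenchyme or the 3 frontonasal ectoderm arrays, and the day interactions in mesenchyme, were chosen after seeing the data. A result for 1 gene of the cofactor list is not reported here.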

Additional observations from a re-analysis of the deposited data

Results flagged for a closer look

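Results are listed here because an effect differed between groups by a test of the difference itself, an interaction in the limma fit. The layer difference (ectoderm minus mesenchyme) was smaller in the frontonasal than in the mandibular prominence for Tfap2a (-2.14) and Tfap2b (-3.00). It was also smaller in the frontonasal than in the maxillary prominence for Tfap2a (-1.41) and Tfap2b (-2.89), and smaller in the maxillary than in the mandibular prominence for Tfap2a (-0.73). Epithelial markers moved the same way in the frontonasal comparisons (14 of 14 for both), and their part in these values was not tested. The layer difference of Tfap2c was larger at E12.5 than at E11.5 (0.50), and the part of marker changes in it was not tested. The change of Tfap2b in mesenchyme from E11.5 to E12.5 was larger in the mandibular than in the frontonasal (1.30) and the maxillary prominence (1.14), by contrasts added after the values were seen. Groups of 3 arrays were not screened for outlying arrays.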

How the results depend on the processing

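The 71 called results of the 3 genes were recomputed 1367 times under the alternatives: 1323 kept direction and call, 44 kept direction and lost the call, and 0 reversed. Of 1210 recomputations of the 67 results not called, 32 gained a call and 58 changed sign. Replicate numbers showed no clear pairing of samples: over 21 same-numbered pairs the correlation of deviations from group means ran from -0.42 to 0.36, and 8 exceeded 0.1. In 10 of the 21 the ectoderm array correlated best with the mesenchyme array of its own number. With 3 arrays a group this does not settle whether samples were paired. The replicate block changed none of the 138 results. For the layer difference all 3 genes were called under all 53 alternatives, and frontonasal minus mandibular mesenchyme gave 2 under all 20. The cause of the changes below was not tested.

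The number of genes called for maxillary minus mandibular ectoderm went from 0 to 1 (Tfap2b) with array weights, renewed quantile normalization, a trended robust moderation or a fit of the compared groups alone, and ranged from 0 to 1 with arrays left out (1 without E11.5 mandibular replicate 1). For frontonasal minus mandibular ectoderm it went from 1 to 0 with array medians centred and ranged from 0 to 1 with arrays left out. For ectoderm E11.5 minus E10.5 it ranged from 1 to 2 with arrays left out and was 3 with the compared groups fitted alone, where Tfap2b passed too. With only the groups compared, the added day interactions called 2 genes for mandibular minus frontonasal (Tfap2a too, 0.53, limma adjusted p = 0.0186) and 0 for mandibular minus maxillary mesenchyme. Tfap2b in maxillary minus mandibular mesenchyme was lost with only the groups compared (limma adjusted p = 0.118). Over the alternatives the simple comparisons called ranged from 42 to 53 (45 as reported) and the unequal shifts from 19 to 21.

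The signs that changed were all of results not called. With medians centred, Tfap2a in mesenchyme E11.5 minus E10.5 was -0.01. With quantile normalization the same was -0.04, frontonasal minus mandibular ectoderm was 0.06 for Tfap2a and 0.04 for Tfap2c, frontonasal minus maxillary ectoderm 0.01 for Tfap2b, the frontonasal minus mandibular layer interaction of Tfap2c 0.09, its mandibular minus maxillary day interaction -0.08 and its mandibular ectoderm E12.5 minus E11.5 0.00. With array weights those ectoderm values were 0.11, 0.06 and 0.03, the Tfap2c interactions 0.14 and -0.01 (and that of frontonasal minus maxillary 0.39, which gained a call), and Tfap2b in E12.5 maxillary minus mandibular mesenchyme 0.20. Without the 2 maxillary mesenchyme arrays the maxillary minus mandibular layer interaction of Tfap2b was 0.19.

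With arrays left out, Tfap2a ranged from -0.05 to 0.13 in mesenchyme E11.5 minus E10.5, from -0.31 to 0.05 in its mandibular part, from -0.00 to 0.13 in mesenchyme and from -0.07 to 0.02 in ectoderm E12.5 minus E11.5, from -0.23 to 0.02 in mandibular ectoderm, and from -0.06 to 0.07 in frontonasal minus mandibular ectoderm. Tfap2b ranged from -0.10 to 0.20 in mandibular mesenchyme E11.5 minus E10.5, from -0.07 to 0.03 in frontonasal minus maxillary ectoderm, from -0.21 to 0.06 in the maxillary minus mandibular layer interaction and from -0.32 to 0.10 in E12.5 maxillary minus mandibular mesenchyme. Tfap2c ranged from -0.10 to 0.01 in frontonasal minus mandibular ectoderm and in the same mesenchyme comparison, from -0.04 to 0.18 there at E12.5, from -0.06 to 0.06 in its layer interaction, from -0.06 to 0.17 in the mandibular minus maxillary day interaction and from -0.07 to 0.03 in mandibular ectoderm E12.5 minus E11.5.

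Counts over all probe sets moved as well. For frontonasal minus mandibular ectoderm the count was 3348 as reported and 931 with only the groups compared. It was 1935, 5054 and 1918 without E11.5 frontonasal replicate 2, E12.5 frontonasal replicate 2 and replicate 3. Fitted alone, frontonasal minus maxillary ectoderm gave 367 instead of 1337 and the mandibular minus frontonasal day interaction 694 instead of 418. A detection filter gave 8059 instead of 5314 for mesenchyme E12.5 minus E11.5. Array weights gave 4108 instead of 2718 and 2583 instead of 1445 in mesenchyme (frontonasal and mandibular against maxillary), 1202 instead of 730 in ectoderm and 1863 instead of 967 for the layer interaction (maxillary minus mandibular), and 1163 and 888 instead of 418 and 367 for the day interactions. The 3 arrays per group limit what differences can be called.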
